A study of Mus musculus with 12 samples.

Results

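The change in the microRNAs of mouse germ cells between embryonic days 12.5 and 11.5 was measured in 4 of the 12 small RNA libraries of the study, and all 616 listed microRNAs entered it. The germ cell libraries compared were PGC female E12.5 and PGC male E12.5, set against PGC female E11.5 and PGC male E11.5, where PGC stands for primordial germ cell and E for the embryonic day. All 4 came from gonads of CD1 mice, an outbred stock, with no transgene or treatment named in the labels, and each combination of sex and day is 1 library. The other 8 libraries are PGCs at E13.5 and gonadal somatic cells, labelled SC, of both sexes on the 3 days. Per the labels' protocols, gonads were pooled in lots of roughly 80, the mesonephros was cut away first, and germ cells were drawn out with magnetic beads carrying an antibody to CD15, a sugar epitope on their surface. By an enzyme stain for germ cells the submitters put their enrichment at 93 to 96%, and RNA under 100 bases was sequenced.

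Primordial germ cells are the founders of eggs and sperm. In the mouse they settle in the genital ridge shortly before the gonad becomes an ovary or a testis, keep much of the gene programme of pluripotent cells, and undergo wide erasure of DNA methylation, imprints included. A microRNA guides a silencing complex to messenger RNAs, chiefly through its seed, bases 2 to 8 from the 5′ end, so microRNAs with the same seed share many predicted targets. Embryonic stem cells and early germ cells are known for the miR-290 cluster, mesenchymal cells for miR-199, miR-214, miR-143 and miR-145, and endothelial cells for miR-126.

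The sequences below are those on which the results turn, taken from RefSeq on GRCm38.p6, in which 526 of the 616 names were found. The seed is in capitals. The first set is the AAGUGCU seed, carried by 3p arms of the miR-290 cluster (chr7:3218639-3220837, plus strand) and of the miR-302 cluster (chr3:127545275-127545687, plus strand), which moved in opposite directions.
miR-291a-3p: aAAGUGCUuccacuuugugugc
miR-294-3p: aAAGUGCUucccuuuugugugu
miR-295-3p: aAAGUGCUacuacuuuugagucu
miR-302b-3p: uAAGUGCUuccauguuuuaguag
miR-302d-3p: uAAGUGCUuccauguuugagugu

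The second set is the most abundant arm of the miR-290 cluster with another arm of the same CUCAAAC seed, and a pair from the miR-17/92 cluster, whose seed is AAAGUGC.
miR-292a-5p: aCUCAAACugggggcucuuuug
miR-293-5p: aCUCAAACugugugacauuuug
miR-17-5p: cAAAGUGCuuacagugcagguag
miR-20a-5p: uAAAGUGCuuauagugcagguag

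The third set holds further microRNAs with large increases, namely 3 of the Fx-mir cluster (chrX:66776760-67988403, minus strand) and miR-204-5p of chromosome 19.
miR-465c-5p: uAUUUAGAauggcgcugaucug
miR-470-5p: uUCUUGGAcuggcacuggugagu
miR-871-3p: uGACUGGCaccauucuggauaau
miR-204-5p: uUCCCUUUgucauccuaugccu

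The last set holds microRNAs that decreased, from the Dlk1-Dio3 cluster (miR-379-5p; chr12:109563710-109747949), from chromosome 2 (miR-126a-3p) and from the Mest gene on chromosome 6, for which both arms are shown because they parted.
miR-379-5p: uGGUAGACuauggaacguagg
miR-126a-3p: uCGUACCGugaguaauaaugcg
miR-335-5p: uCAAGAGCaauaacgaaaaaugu
miR-335-3p: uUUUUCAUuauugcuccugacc

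The libraries differed in depth and in how far they looked like germ cells. MicroRNA reads numbered 166804 in PGC female E12.5 and 184174 in PGC male E12.5, against 1221211 in PGC female E11.5 and 432830 in PGC male E11.5. The smallest nonzero value stands for 5 reads in each of them, so a microRNA listed at 0 had fewer than 5 reads, a floor of 29.98 and 27.1 reads per 1000000 microRNA reads (RPM) at E12.5, against 4.09 and 11.6 RPM at E11.5. In PGC female E12.5, 350 microRNAs were detected and in PGC male E12.5 356, against 519 in PGC female E11.5 and 461 in PGC male E11.5, and 304 were detected in all 4. The label of PGC female E11.5 is weakly borne out by its markers. Its miR-290 cluster took 0.235% of reads, against 7.13% in PGC male E11.5 and 0.0336 and 0.0244% in the female and male SC libraries of the same day. Over the 616 microRNAs its log2 levels had a Pearson correlation of 0.973 with SC female E11.5, 0.945 with PGC male E11.5 and 0.832 with PGC female E12.5, while the 2 E12.5 libraries had 0.965 with each other. These correlations describe microRNAs that share libraries and carry no test. The main groups are therefore given with PGC female E11.5, without it, and for males alone.

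Levels were compared at equal totals, as RPM, by limma on log2(RPM + 30) with Benjamini-Hochberg adjustment over the 372 microRNAs averaging at least 30 RPM. At an adjusted p under 0.05, 56 microRNAs were higher at E12.5 (15.1% of those tested) and 113 were lower (30.4%), with a median log2 change of -0.36. Of the 113, 23 were listed at 0 in both E12.5 libraries, and of the 56, 3 were at 0 in both E11.5 libraries, so these entered the test through 1 day alone. Both E12.5 libraries lay above both E11.5 libraries for 104 microRNAs (28.0%) and below both for 158 (42.5%). Without PGC female E11.5, 14 were higher (3.76%) and 77 lower (20.7%), and without PGC female E12.5, 16 were higher and 57 lower. By voom, limma's weighting for reads, 24 were higher and 68 lower. On the deposited scale, where each library is divided by the authors' size factor, 2 were higher (0.538%) and 213 lower (57.3%), and the median log2 change was -1.64. The deposited sums were 105730 and 147413 at E12.5, against 897730 and 369596 at E11.5, so that scale keeps the lower microRNA read totals of the E12.5 libraries in the values. Why these totals differ was not tested. Of the 113 decreases 112 were also called on the deposited scale, and of the 56 increases 2 were, with 35 still positive there. With 1 library per sex and day, these p-values measure the spread of the fitted libraries, SC included, around additive sex and day terms within cell type. They do not measure the spread among repeated isolations.

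**Figure D1:**
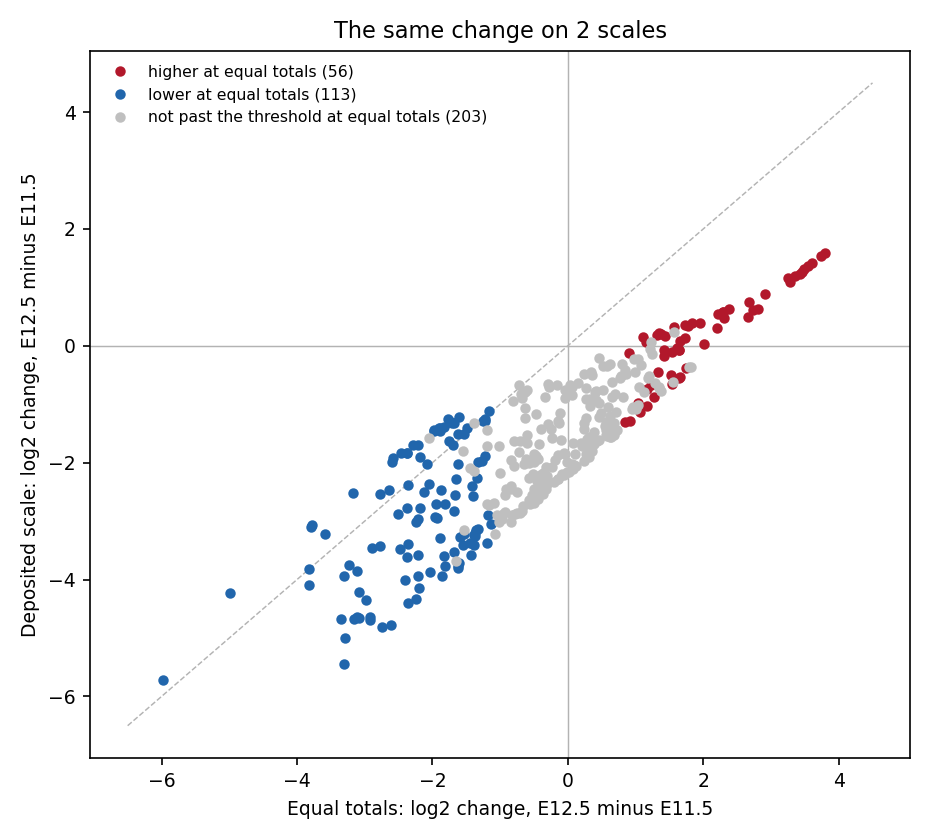
Log2 change of 372 tested microRNAs, E12.5 minus E11.5, at equal totals (x axis) and on the deposited scale (y axis), coloured by the call at equal totals; the dashed line marks equal changes. Most points lie below the line, the 113 decreases stay under 0 on both axes, and 35 of the 56 increases stay above 0 on the deposited scale.

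Most tested members of the miR-290 cluster were higher at E12.5. The cluster took 12.8% of microRNA reads in PGC female E12.5 and 14.3% in PGC male E12.5, against 0.235% in PGC female E11.5 and 7.13% in PGC male E11.5. Of its 14 members, all tested, 11 passed as higher, against 15.1% higher among all tested, and 0 as lower, with a median log2 change of 2.77. The E12.5 shares lie close together, and the E11.5 shares lie far apart.

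Its most abundant member, miR-292a-5p, stood at 56126 and 63994 RPM in the female and male E12.5 libraries, against 789 and 22656 RPM in the female and male E11.5 libraries. Both E12.5 values lie above both E11.5 values, and the log2 change was 3.80 ± 0.96 (SE; adjusted p = 0.0113 by limma). The female ratio was 71.1 and the male ratio 2.83 (95% counting interval 2.75 to 2.90). miR-294-3p, of the AAGUGCU seed that promotes rapid cell cycling in mouse embryonic stem cells, had 15569 and 13656 RPM at E12.5 (female, male), against 248 and 6330 RPM at E11.5. The log2 change of miR-294-3p was 3.46 ± 0.96 (SE; adjusted p = 0.0179 by limma). That of miR-295-3p, of the same seed, was 3.44 ± 1.00 (SE; adjusted p = 0.0218 by limma). The groups do not overlap for either.

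Other arms of the cluster followed, with log2 changes of 3.74 for miR-292a-3p, 3.61 for miR-291a-5p, 3.48 for miR-291b-5p, 2.81 for miR-291a-3p, 2.74 for miR-290a-5p, 2.68 for miR-294-5p, 1.43 for miR-295-5p and 1.34 for miR-290a-3p. The 3 members that did not pass were miR-293-3p, miR-293-5p and miR-291b-3p. miR-293-3p had 5210 and 15719 RPM at E12.5 (female, male), against 363 and 16921 RPM at E11.5, so the male values lie close together and the groups overlap. The cluster was thus not uniform: within males the ratios of its 12 members with at least 200 RPM had a median of 1.99, with 11 above 1 and none at 4.

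The size of this increase rests on PGC female E11.5. Without that library 0 of the 14 members passed by limma, 6 of them having an unadjusted p under 0.05, with a median log2 change of 1.04. Without PGC female E12.5, 1 passed and the median was 1.90, while by voom on all libraries 5 passed. With only the 6 germ cell libraries in the fit 2 members passed, and with only the 4 compared libraries 14 did. With 1 RPM added in place of 30, 5 passed. In males alone the cluster's summed share was 2.01-fold higher (counting interval 1.97 to 2.04), against 54.5-fold in females. The female change of miR-295-3p exceeded its male change by 4.85 ± 0.57 on the log2 scale (SE; adjusted p = 0.0951 by limma), and 0 of 372 microRNAs passed in that test of the difference between the sexes, with 37 at an unadjusted p under 0.05; with an added 1 RPM in place of 30, 25 passed. That test gave each germ cell library its own term, so its residual spread came from the SC libraries alone (2 residual degrees of freedom). On the deposited scale 2 members passed as higher, miR-291b-5p and miR-294-5p, and the male sum was 21082 at E12.5, against 26346 at E11.5. Bulk RNA cannot tell apart a change within the germ cells, a changed share of another cell type in the fraction, and a change in that type's RNA per cell. This holds here and in every result that follows.

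The miR-302 cluster, which in pluripotent cells shares the AAGUGCU seed and many targets with miR-290 members, moved the other way, at a far lower level. It took 0.0222 and 0.0239% of reads at E12.5 (female, male), against 0.0568 and 0.0677% at E11.5. The SC libraries had a like decrease, with 0.0125 and 0.0130% at E12.5 (female, male), against 0.0495 and 0.0334% at E11.5. miR-302d-3p had 36.0 and 54.3 RPM at E12.5, against 178 and 224 RPM at E11.5, without overlap (log2 change -1.62 ± 0.33, SE; adjusted p = 0.00525 by limma). miR-302a-3p passed as lower too (-1.49), and miR-302b-3p, at -0.80, did not, where 30.4% of all tested microRNAs were lower. miR-302c-3p and miR-302a-5p were too low to test. Both decreases were also called without PGC female E11.5, 1 without either male library, and neither by voom, where 1 of the 3 had an unadjusted p under 0.05. A ratio taken inside a library is free of any scaling: miR-290 cluster reads outnumbered miR-302 cluster reads 577 to 1 and 599 to 1 in the female and male E12.5 libraries, against 4.13 to 1 and 105 to 1 in the E11.5 libraries. The E13.5 PGC libraries had 1137 and 1734 to 1, and the female and male SC libraries of E11.5 had 0.679 and 0.730 to 1.

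**Figure D2:**
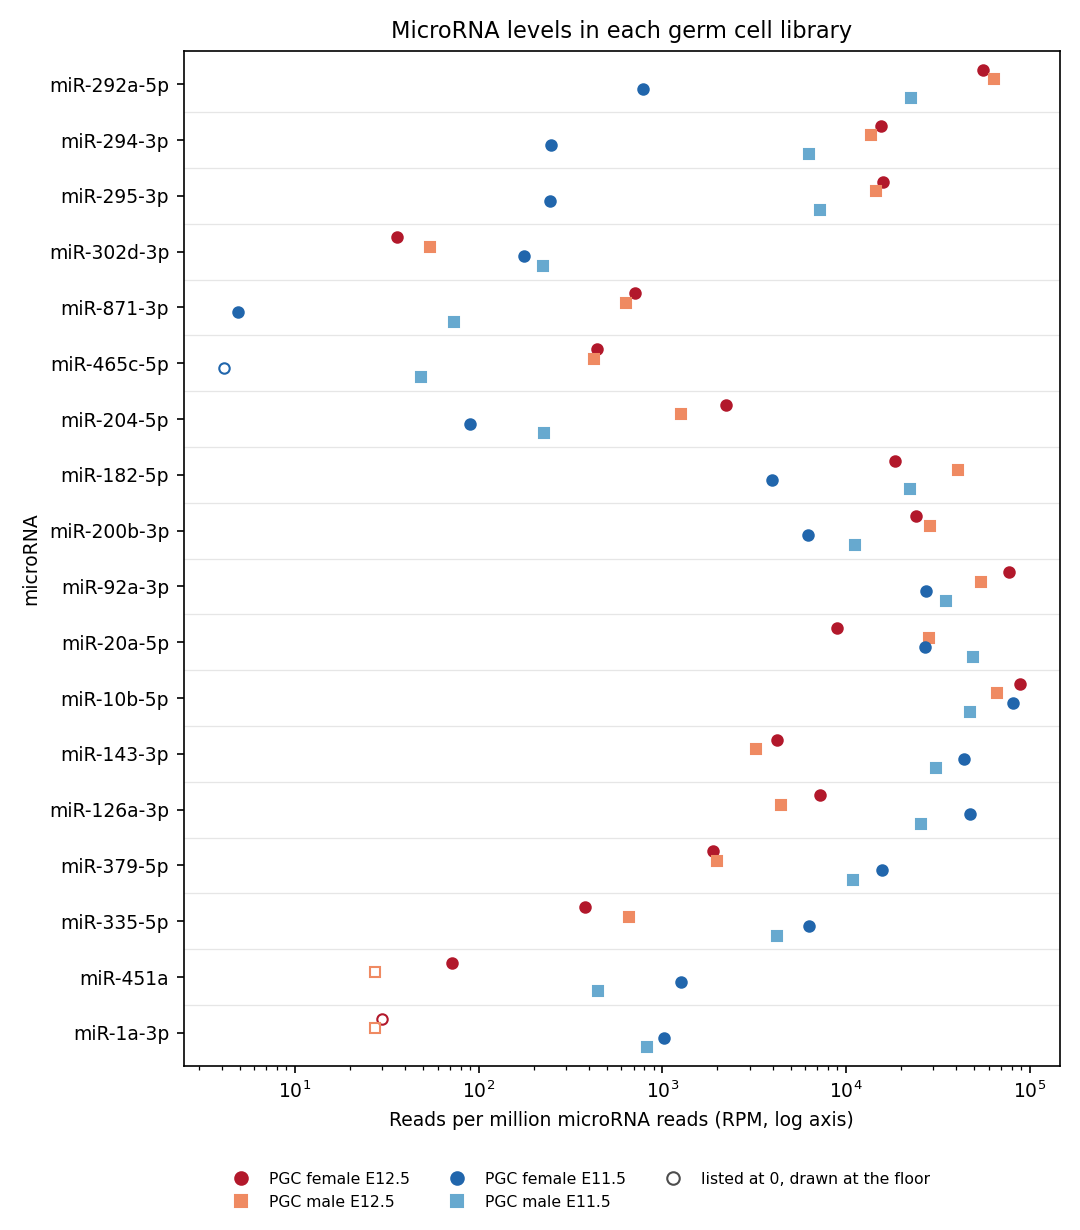
Level of 18 microRNAs (rows) in each of the 4 germ cell libraries, in RPM on a log axis; circles are female, squares male, reds E12.5 and blues E11.5, and open symbols mark microRNAs listed at 0, drawn at that library's floor. For miR-292a-5p and the other miR-290 cluster members, PGC female E11.5 stands far to the left of the other 3 libraries, while for miR-143-3p, miR-126a-3p and miR-379-5p both E12.5 libraries stand to the left of both E11.5 libraries.

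The Fx-mir cluster, a group of X-linked microRNAs known from testis and germ cells that evolves fast, was higher in each sex, by 3.59-fold in males (counting interval 3.23 to 4.00) and 99.7-fold in females (75.4 to 134). It took 0.433 and 0.479% of reads at E12.5 (female, male), against 0.00434 and 0.133% at E11.5. Of its 31 listed members 17 were tested, since the others were too low, and 15 of these passed as higher, against 15.1% among all tested, and 0 as lower (median log2 change 1.95). Of the 15, 3 were listed at 0 in both E11.5 libraries. Because a microRNA absent at E11.5 could be tested only if it was high at E12.5, this count does not speak for all 31. Without PGC female E11.5, 8 passed, as did 9 without PGC female E12.5 and 8 by voom.

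miR-871-3p had 713 and 635 RPM in the female and male E12.5 libraries, against 4.91 and 73.9 RPM in the E11.5 libraries. In males alone this is a ratio of 8.59 (counting interval 5.77 to 13.1), and the log2 change over both sexes was 3.55 ± 0.51 (SE; adjusted p = 0.00169 by limma). miR-470-5p had 731 and 402 RPM at E12.5 (female, male), against 6.55 and 55.4 RPM at E11.5. For both, each E12.5 library lies above each E11.5 library.

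miR-465c-5p had 444 and 424 RPM at E12.5, against 0 and 48.5 RPM at E11.5, with a male ratio of 8.73 (5.34 to 14.9). miR-465b-5p had a male ratio of 5.39, and miR-741-3p had 611 and 918 RPM at E12.5, against 9.01 and 245 RPM at E11.5. miR-880-3p (log2 change 0.46) and miR-878-5p (1.21) did not pass, and miR-880-3p was the only tested member with a male E12.5 value, 54.3 RPM, under that of male E11.5, 76.2 RPM. The 3p arms of miR-465a, miR-465b and miR-465c have 1 mature sequence in RefSeq, so their 3 calls rest on shared reads and are uncertain as separate results. On the deposited scale 0 of the 17 passed by limma, 3 having an unadjusted p under 0.05, with a median log2 change of 0.38, and the male sum of the cluster was 706 at E12.5, against 493 at E11.5.

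Fx-mir reads can also be set against miR-290 reads of the same library. Per miR-290 cluster read there were 0.0338 and 0.0335 Fx-mir reads in the female and male E12.5 libraries, against 0.0185 (counting interval 0.0138 to 0.0242) and 0.0187 (0.0172 to 0.0203) in the E11.5 libraries, the female E11.5 value resting on 53 Fx-mir reads. On these days the intervals of the sexes overlap. The ratio was 1.83-fold higher at E12.5 in females and 1.79-fold in males, and at E13.5 it was 0.330 in females (0.323 to 0.336) and 0.271 in males (0.266 to 0.277), where they do not.

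Among microRNAs of epithelial and sensory cells, the miR-182 cluster on chromosome 6 took 3.05 and 6.46% of reads at E12.5 (female, male), against 0.655 and 3.52% at E11.5. miR-183-5p and miR-182-5p passed as higher and miR-96-5p did not (log2 changes 1.66, 1.54 and 0.19). miR-182-5p had 18585 and 40842 RPM at E12.5, against 3985 and 22489 RPM at E11.5, so that the female E12.5 value lies below the male E11.5 value and the groups overlap, although each sex was higher at E12.5. The miR-200 family, which holds epithelial cells in that state by repressing Zeb factors, took 3.73 and 4.54% at E12.5, against 1.14 and 2.50% at E11.5. miR-200b-3p had 23956 and 28772 RPM at E12.5, against 6236 and 11258 RPM at E11.5 (log2 change 1.64 ± 0.47, SE; adjusted p = 0.0209 by limma), without overlap. Of 6 tested members 2 passed, where 15.1% of all tested microRNAs were higher. miR-200a-3p, from the same chromosome 4 cluster as miR-200b-3p, had a log2 change of -0.15. Without PGC female E11.5, or without PGC female E12.5, neither group had a member past the threshold, and on the deposited scale the log2 changes of miR-182-5p (-0.66), miR-183-5p (-0.53) and miR-200b-3p (-0.55) were negative.

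Outside the clusters, miR-204-5p, a microRNA of kidney and eye epithelia, stood at 2224 and 1265 RPM at E12.5 (female, male), against 90.1 and 226 RPM at E11.5, without overlap. Its log2 change was 3.28 ± 0.50 (SE; adjusted p = 0.00191 by limma), it was 5.59-fold higher in males alone (4.39 to 7.15), and it still passed without PGC female E11.5 (2.43; adjusted p = 0.0133). The other kidney microRNAs, miR-192-5p (-0.83) and miR-194-5p (-0.32), did not pass. miR-155-5p, best known from activated immune cells, had 179.9 and 244 RPM at E12.5, against 48.3 and 57.8 RPM at E11.5, and passed with and without PGC female E11.5. Also named by the size of the male ratio were miR-5121, 6.53-fold higher in males, and miR-677-5p, 8.62-fold higher in males but not past the threshold over both sexes. For males alone, 8 of 260 microRNAs with at least 200 RPM in either library were at least 4-fold higher (3.08%) and 51 at least 4-fold lower (19.6%); for females it was 33 (12.7%) and 54 (20.8%) of 259. Single libraries allow no test of these ratios.

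**Figure D3:**
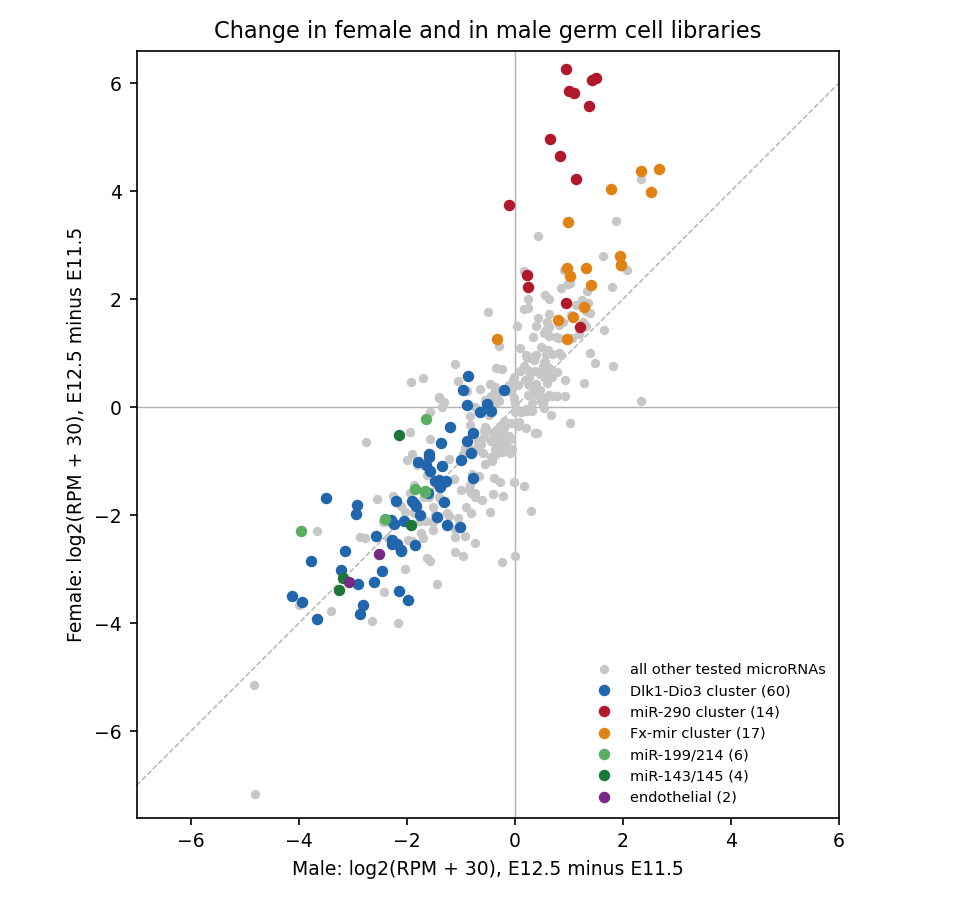
Change of 372 microRNAs on the log2(RPM + 30) scale, E12.5 minus E11.5, in males (x axis) and in females (y axis); the dashed line marks equal changes, and the number of tested members stands beside each group. Most of the miR-290 cluster lies far above the line, most of the Fx-mir cluster lies above it, and the Dlk1-Dio3, miR-199, miR-143 and endothelial microRNAs lie nearer to it on the left.

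The largest group to decrease was the Dlk1-Dio3 cluster of chromosome 12, imprinted microRNAs made from the maternal copy and abundant in embryonic mesenchyme. It took 4.48 and 2.51% of reads at E12.5 (female, male), against 13.2 and 9.01% at E11.5. Of 60 tested members 46 passed as lower and 0 as higher, against 30.4% lower among all tested, but 9 of the 46 were listed at 0 in both E12.5 libraries and entered the test through E11.5 alone. In all, 59 had a negative change (median log2 change -1.82, or -1.51 with those 9 set to the floor). Without PGC female E11.5, 36 passed as lower, without PGC female E12.5, 28, and by voom 32; on the deposited scale 58 did.

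miR-379-5p had 1888 and 1982 RPM at E12.5 (female, male), against 15680 and 10972 RPM at E11.5. The days are far apart and the 2 libraries of each are close, and the log2 change of miR-379-5p was -2.74 ± 0.30 (SE; adjusted p = 0.000900 by limma). miR-411-5p had 1697 and 1596 RPM at E12.5, against 9988 and 7317 RPM at E11.5 (-2.36). miR-541-5p, the cluster's most abundant member, decreased less (-1.43), with 6505 and 4257 RPM at E12.5, against 18105 and 11122 RPM at E11.5.

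The largest changes by size were those of miR-341-3p (-3.82), miR-329-5p (-3.80), miR-136-3p (-3.77), miR-369-3p (-3.34), miR-299a-3p (-3.31) and miR-380-3p (-3.24). miR-329-5p and miR-136-3p were listed at 0 in both E12.5 libraries, so their sizes depend on the added 30; in males alone they were at least 12.9-fold and 15.8-fold lower. Not all members moved alike. The abundant miR-127-3p (-0.75), miR-434-3p (-0.78) and miR-433-3p (-0.33) did not pass, and miR-433-3p had 5563 and 1884 RPM at E12.5, against 4467 and 3708 RPM at E11.5. In males all 44 members with at least 200 RPM were lower, 25 of them at least 4-fold, and in females 42 of 46, 20 of them at least 4-fold.

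MicroRNAs of mesenchymal cells decreased in the same libraries. miR-143 and miR-145, typical of smooth muscle and fibroblasts, took 0.580 and 0.356% of reads at E12.5 (female, male), against 4.68 and 3.28% at E11.5, and all 4 of their arms passed as lower with and without PGC female E11.5, and 2 by voom. Of the 4 arms, 1 was listed at 0 in both E12.5 libraries and entered the test through E11.5 alone. Their median log2 change was -2.61, or -2.13 with that arm at its floor. Among all tested microRNAs 30.4% were lower. miR-143-3p had 4215 and 3252 RPM at E12.5, against 43978 and 31065 RPM at E11.5 (-3.31 ± 0.39, SE; adjusted p = 0.00102 by limma). The female and male changes differed little, at 10.4-fold and 9.55-fold lower (male counting interval 8.80 to 10.4). The miR-199 and miR-214 arms took 1.68 and 0.869% at E12.5, against 5.05 and 3.35% at E11.5, and 5 of 6 passed as lower, or 3 without PGC female E12.5. miR-199a-3p had 7710 and 4013 RPM at E12.5, against 22804 and 12816 RPM at E11.5 (-1.61); miR-199b-3p has the same mature sequence, so their reads cannot be told apart. miR-214-3p, with 1840 and 445 RPM at E12.5, against 2136 and 1446 RPM at E11.5, did not pass (-0.92).

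Markers of other cell types were also measured. Endothelial miR-126a-3p had 7254 and 4431 RPM at E12.5 (female, male), against 47621 and 25562 RPM at E11.5, without overlap (-2.62 ± 0.32, SE; adjusted p = 0.00125 by limma). Erythroid miR-451a had 71.9 and 0 RPM at E12.5, against 1260 and 446 RPM at E11.5 (-3.83), and was the 1 of 4 tested erythroid microRNAs to pass; it did not pass without either E12.5 library or by voom. The erythroid count (25% lower) is under the 30.4% lower among all tested microRNAs. Muscle miR-1a-3p was listed at 0 in both E12.5 libraries, against 1026 and 825 RPM at E11.5, and was at least 30.4-fold lower in males.

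Liver-specific miR-122-5p had 0 and 43.4 RPM at E12.5 (female, male), against 4280 and 2015 RPM at E11.5, and in males it was 46.4-fold lower (counting interval 23.4 to 108). It did not pass without PGC female E12.5 or by voom (adjusted p = 0.190). All 3 tested muscle microRNAs were listed at 0 in both E12.5 libraries and entered the test through their E11.5 levels alone. Their median log2 change was -1.74, or -0.77 with the E12.5 libraries at their floors, so their calls as lower lend no support. Of neural microRNAs miR-9-5p (0.31) and miR-128-3p (0.43) did not pass. In PGC male E11.5, the library with a high miR-290 share, endothelial, muscle and liver microRNAs stood at 2.78, 0.0913 and 0.201% of reads, against 3.005, 0.0679 and 0.303% in SC male E11.5 and 3.71, 0.150 and 0.0653% in SC female E11.5. Erythroid microRNAs were lower there than in both, at 0.0977%, against 0.209% in SC male E11.5 and 0.121% in SC female E11.5. So were miR-143 and miR-145 (3.28%, against 5.12 and 5.98%) and miR-199 and miR-214 (3.35%, against 4.77 and 7.11%). The part these cell types have in the decreases was not tested.

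Ratios inside a library show the same shift without any scaling. The miR-290 cluster had 22.1 and 40.2 reads for each read of miR-143 and miR-145 in the female and male E12.5 libraries, against 0.0502 and 2.17 in the E11.5 libraries and 0.00562 and 0.00476 in the female and male SC libraries of E11.5. In males this ratio was 18.5-fold higher at E12.5. The endothelial microRNAs had 1.32 and 1.31 reads for each read of miR-143 and miR-145 at E12.5, against 1.1003 and 0.846 at E11.5, a ratio higher by 1.195-fold in females and 1.55-fold in males. Dlk1-Dio3 microRNAs had 7.73 and 7.06 reads for each of these at E12.5, against 2.83 and 2.74 at E11.5, so in both sexes they were less reduced than miR-143 and miR-145.

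**Figure D4:**
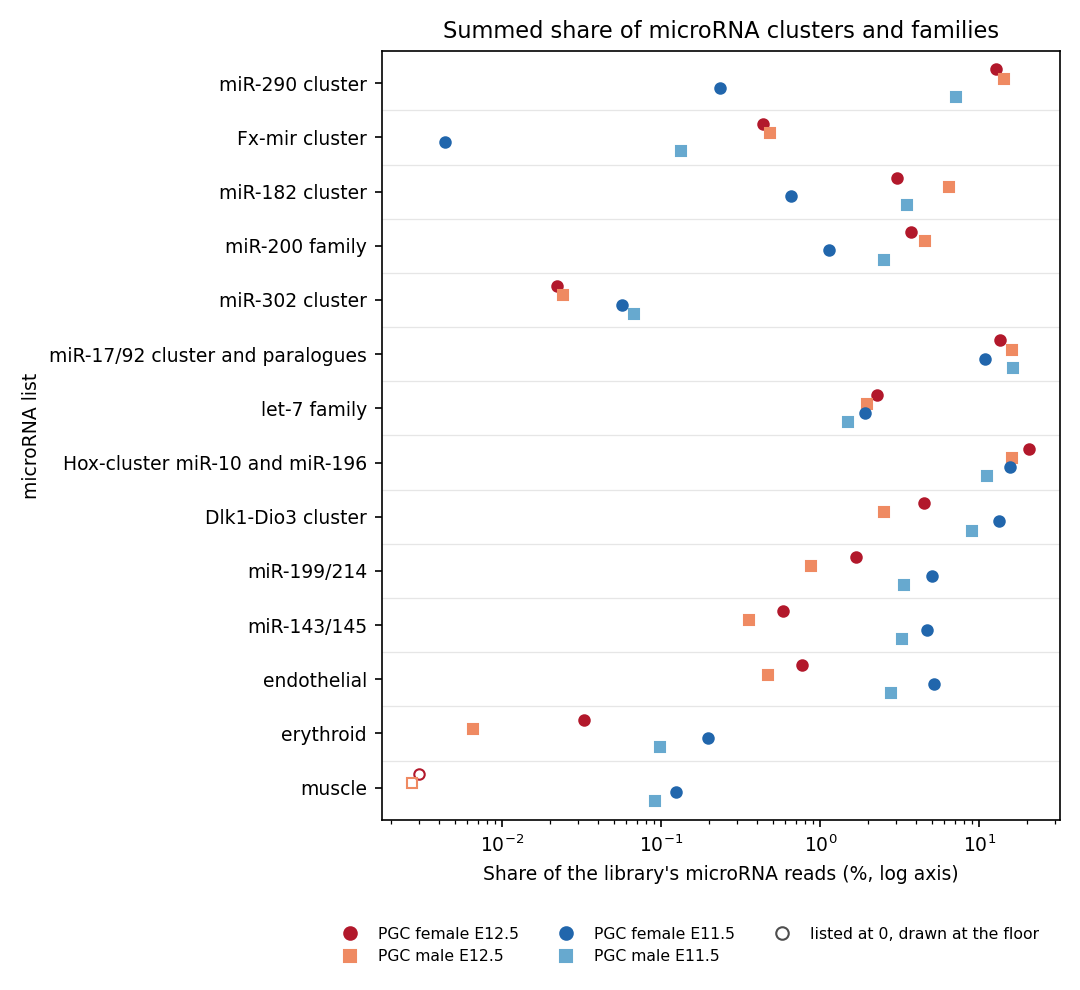
Summed share of the library's microRNA reads (%, log axis) for 14 groups of microRNAs in the 4 germ cell libraries; symbols as in the plot of levels, open symbols being groups with every member listed at 0, drawn at 5 reads. The E12.5 libraries lie to the right of E11.5 for the miR-290, Fx-mir and miR-200 groups and to the left for the miR-302, Dlk1-Dio3, miR-199, miR-143, endothelial, erythroid and muscle groups.

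The miR-17/92 cluster and its paralogues, known to promote cell cycling, took 13.5 and 16.1% of reads at E12.5 (female, male), against 10.8 and 16.4% at E11.5, with 4 increases and 5 decreases among 21 tests. Over all tested microRNAs 15.1% were higher and 30.4% lower, so these counts are near the background, and on the deposited scale there were 0 and 10. Without PGC female E11.5 there were 0 and 2, and without PGC female E12.5, 0 and 1, by limma, with 5 of the 21 at an unadjusted p under 0.05 in each case; by voom there were 1 and 3. miR-92a-3p passed as higher (1.06 ± 0.33, SE; adjusted p = 0.0290 by limma), with 77378 and 54362 RPM at E12.5, against 27468 and 35014 RPM at E11.5. From the same precursor on chromosome 14, though miR-92a has a further gene on the X chromosome, miR-20a-5p passed as lower (-1.19), with 8999 and 28294 RPM at E12.5, against 26968 and 49387 RPM at E11.5, as did miR-19a-3p (-3.58), miR-19b-3p (-2.03) and miR-18a-5p (-1.89). There were 8.60 and 1.92 reads of miR-92a-3p per read of miR-20a-5p at E12.5, against 1.02 and 0.709 at E11.5, and 1.03 and 0.986 in the E13.5 PGC libraries. In the SC libraries of E11.5 this ratio was 0.663 in females and 1.60 in males.

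The X-linked miR-322 cluster (chrX:53048008-53054327, minus strand), known to slow the cell cycle, had both called and uncalled members. The share called lower among all tested microRNAs was 30.4%. Among 10 tests there were 5 decreases, or 3 without PGC female E12.5, led by miR-542-3p (-3.08) and miR-503-5p (-2.98), while miR-351-5p, with 4412 and 2335 RPM at E12.5 (female, male), against 4021 and 3440 RPM at E11.5, did not pass (-0.21). miR-335-5p decreased by 3.29 on the log2 scale, with 378 and 657 RPM at E12.5, against 6276 and 4244 RPM at E11.5. The other arm of the same hairpin, miR-335-3p, had 5426 and 4170 RPM at E12.5, against 10233 and 5649 RPM at E11.5 (-0.67, not past the threshold).

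Arm shares were compared in other hairpins too, a comparison chosen after the values were seen, and one that no scaling touches because both arms are read in 1 library. Of the 196 hairpins with both arms listed, 55 had reads of each arm in the 4 libraries and at least 50 in sum in each. The share of the 5p arm was lower in both E12.5 libraries than in both E11.5 libraries for 23 of them and higher for 16. For miR-335 the 5p arm gave 6.51 and 13.6% of reads at E12.5 (female, male), against 38.0 and 42.9% at E11.5. For miR-455 it gave 10.5 and 37.2% at E12.5, against 77.5 and 79.8% at E11.5, and for miR-30a 74.2 and 89.3%, against 91.7 and 97.7%. miR-369 went the other way, with 79.2 and 70.1% at E12.5, against 37.5 and 33.7% at E11.5.

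For 20 of the 23 hairpins with a lower 5p share at E12.5, both E13.5 PGC libraries lay above both E12.5 libraries. For 13 of the 16 with a higher share, both lay below. These hairpins were picked because both E12.5 shares lay beyond both E11.5 shares. That choice favours a return at E13.5, so these counts lend no support to one. In the E13.5 PGC libraries the 5p arm gave 74.3 and 76.3% for miR-455 (female, male), 35.5 and 14.9% for miR-335, and 33.7 and 45.7% for miR-369. The difference in GC content between the arms went with the shift (Pearson r = 0.497, Spearman rho = 0.458 over 45 hairpins with both sequences), the arm richer in G and C taking the larger share at E12.5. Across the 323 tested microRNAs with a sequence, GC content and log2 change had r = 0.117, or 0.294 over 236 microRNAs without the miR-290, Fx-mir and Dlk1-Dio3 clusters, and the female and male changes alone had 0.154 and 0.0522. At E12.5 the female minus male difference had r = 0.305, and the change from E12.5 to E13.5 over both sexes had r = -0.36. Of the 115 microRNAs with 23.8 to 43.5% G and C, 49 passed as lower and 18 as higher, and of the 105 with 52.2 to 72.7%, 22 passed as lower and 14 as higher. The points share the same libraries and have no test, and the part that base composition has in single calls was not tested.

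**Figure D5:**
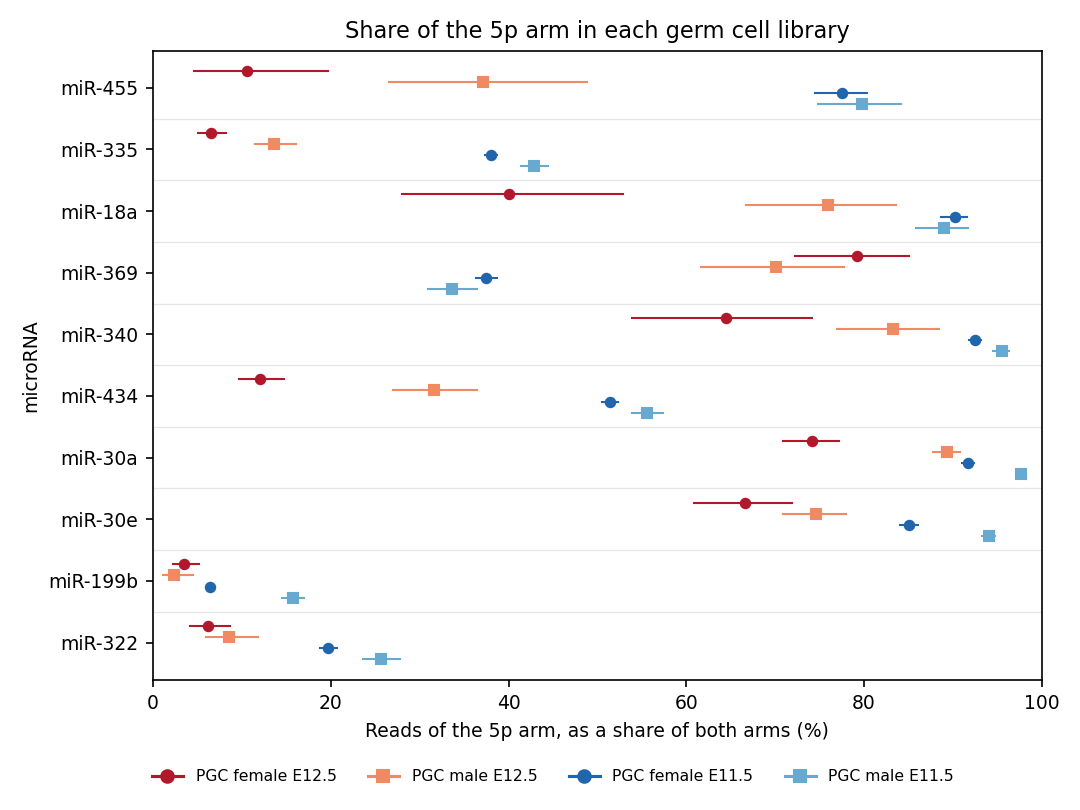
Reads of the 5p arm as a share of both arms (%) for the 10 hairpins with the largest difference between E12.5 and E11.5, with 95% exact binomial intervals; colours and symbols as in the plot of levels. Except for miR-369, both E12.5 libraries lie to the left of both E11.5 libraries, and PGC female E12.5 lies farther out than PGC male E12.5 in 9 of the 10 hairpins.

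miR-10a-5p and miR-10b-5p, encoded in the Hox clusters, were the top 2 of both E12.5 libraries. The summed share of their group was 1.32-fold higher in females and 1.45-fold higher in males, at 20.5 and 16.1% at E12.5 (female, male), against 15.6 and 11.1% at E11.5, while on the deposited scale the male log2 ratio was -0.79. miR-10a-5p had 113744 and 92299 RPM at E12.5 (female, male), against 68820 and 59767 RPM at E11.5, so both E12.5 values lie above both E11.5 values (log2 change 0.68; not past the threshold). miR-10b-5p had 88697 and 66758 RPM at E12.5, against 81577 and 47444 RPM at E11.5 (0.31; not past). Of the 6 Hox-cluster arms tested, miR-196a-5p passed as lower. The let-7 family, which accumulates as cells differentiate, took 2.26 and 1.98% of reads at E12.5, against 1.90 and 1.501% at E11.5, and of 12 tested members let-7b-5p and let-7c-5p passed as higher and let-7i-5p as lower.

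Among miR-125, miR-99 and miR-100, neighbours of let-7 genes, miR-125a-5p passed as higher (1.17) and 1 other of the 9 arms as lower. The latter was listed at 0 in both E12.5 libraries and entered the test through E11.5 alone. These calls, like those of the Hox-cluster and let-7 groups, stand beside 15.1% higher and 30.4% lower among all tested microRNAs. miR-30c-5p (0.91) and miR-30a-3p (1.03) passed as higher among 9 miR-30 members, and of 8 arms of miR-23, miR-27 and miR-24, miR-23b-3p passed as higher (1.27) and 1 as lower. miR-152-3p and miR-148b-3p, of a family that represses the DNA methyltransferase Dnmt1, passed as lower (-1.68 and -1.37), and the more abundant miR-148a-3p, with 7800 and 13889 RPM at E12.5 (female, male), against 19293 and 18095 RPM at E11.5, did not (-0.84). miR-21a-5p, an abundant microRNA of many stromal cells, passed as lower (-1.63), with 6726 and 15827 RPM at E12.5, against 38659 and 26324 RPM at E11.5.

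Counts in the remaining groups stand beside 15.1% higher and 30.4% lower among all tested microRNAs. There, miR-16-1-3p was the only 1 of 4 tested arms of miR-15 and miR-16 to pass, as lower (25%). miR-34c-5p was the 1 of 2 in its family to pass, also as lower. Of 7 arms of miR-130 and miR-301, 3 passed as lower (42.9%), against 30.4% among all tested microRNAs. Of those 3, 1 was listed at 0 in both E12.5 libraries and entered the test through E11.5 alone. Neither the 6 tested arms of miR-181 nor the 2 of miR-221 and miR-222, which target the germ cell receptor Kit, passed the threshold of limma, by voom, or at an unadjusted p under 0.05, while on the deposited scale all 6 of miR-181 passed as lower (median log2 change -2.11). Of 9 members of the imprinted Sfmbt2-type group 1 passed as lower and 1 as higher, miR-669c-5p, with 2704 and 1852 RPM at E12.5, against 587 and 712 RPM at E11.5. The member called lower was listed at 0 in both E12.5 libraries and entered the test through E11.5 alone. Both counts of the Sfmbt2-type group (11.1% each way) lie under the shares among all tested microRNAs. Of the gonadal somatic microRNAs miR-455-5p passed as lower (-2.21), while miR-202-5p had 462 and 619 RPM at E12.5, against 258 and 155 RPM at E11.5 (1.29; adjusted p = 0.0823 by limma). Without PGC female E11.5 none of the increases in these groups passed (miR-669c-5p, let-7b-5p, let-7c-5p, miR-125a-5p, miR-30c-5p, miR-30a-3p, miR-23b-3p), nor did the decreases of miR-196a-5p, let-7i-5p, miR-152-3p, miR-148b-3p, miR-21a-5p, miR-16-1-3p, miR-34c-5p, miR-455-5p and the Sfmbt2-type member.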

How the data were processed

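Small RNA libraries of 12 pools of sorted mouse gonadal cells were sequenced on an Illumina MiSeq, per the labels. The submitters' processing notes name FastQC, Trim Galore, Bowtie 1.1.2, DESeq and GRCm38; how reads were counted, and on which microRNA annotation, is not given in the labels. The deposited signal values are the authors' read counts divided by a DESeq size factor, per the submitters' processing notes. In every library each value was 0 or a whole multiple, within 1e-06, of the smallest value divided by 5, so whole reads could be computed (100% of values), and 5 reads was the smallest number present. The count models edgeR and DESeq2 were not run, by a choice made because the deposited values are normalized. Of the methods for reads, only voom was run, on the computed whole reads. Each library was rescaled to RPM of its own sum, without which the deposited scale carries the differing microRNA read totals.

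Libraries were grouped by cell type, sex and day, 1 library each, so the labels pair none. The main test was limma 3.58.1 (R 4.3.3) with a trended prior on log2(RPM + 30) of 12 libraries, with sex and day as additive terms within cell type (4 residual and 4.58 prior degrees of freedom), for microRNAs with a mean of at least 30 RPM over the 4 libraries, with Benjamini-Hochberg adjustment at 0.05. A fold change on that scale understates the change of low microRNAs. The test between the sexes gave each germ cell library its own term, with 2 residual degrees of freedom, from the SC libraries. The deposited scale, other added constants and filters, smaller sets of libraries, omission of each library, and voom were alternatives. Ratios between single libraries, at least 4-fold among microRNAs with at least 200 RPM in either, have no test; their 95% exact binomial intervals, like the floors, cover counting error only. MicroRNAs named were the 12 largest changes each way past the threshold with a mean of at least 100 RPM and one direction in both sexes, the 8 largest male ratios each way, the 5 most abundant of each library, up to 4 members of each of 30 lists by mean, and all of the miR-290 and miR-302 clusters; others that complete a count of calls, and the arm shares, were chosen after their values were seen. The members, lists and tests were chosen with earlier results of these data known. The fit was also run on simulated reads with the same mean levels in all libraries, apart from changes set in the E12.5 germ cell libraries. That simulation held no difference between germ and somatic cells and no library like PGC female E11.5. It therefore does not vouch for the calls given here. Sequences came from RefSeq GRCm38.p6. Python 3.11.15, pandas 2.3.3, scipy 1.17.1 and matplotlib 3.10.9 were used.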

Additional observations from a re-analysis of the deposited data

How the results depend on the processing

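With 2 libraries on each day, the counts moved with the scale and with single libraries, and the cause was not tested. The 56 increases became 2 on the deposited scale, 35 with 1 RPM added and 24 by voom, and the 113 decreases became 213 on the deposited scale and 68 by voom. Leaving out each library in turn gave 14 (PGC female E11.5), 16 (PGC female E12.5), 46 and 54 increases and 57 (PGC female E12.5), 77, 88 and 104 decreases; on the deposited scale it gave 0 to 9 increases and 23 (PGC female E12.5), 47 (PGC female E11.5), 168 and 235 decreases. Decreases were 66.9% of the calls, against 99.1% on the deposited scale, 84.6% when PGC female E11.5 was omitted and 78.1% when PGC female E12.5 was. An added 10 RPM, no filter, a filter at 100 RPM, only the 6 or the 4 germ cell libraries, or no sex term kept the counts at 40 to 64 increases and 83 to 159 decreases. Single groups moved more, since the 11 miR-290 cluster increases became 2 with only the 6 germ cell libraries. Among males, the 8 ratios of at least 4 became 0 on the deposited scale, 2 with a minimum of 500 RPM and 36 at a fold of 2, and the 51 microRNAs at least 4-fold lower became 30 with that minimum and 90 at a fold of 2. Among females, 33 became 7 on the deposited scale and 59 at a fold of 2, and 54 became 196 and 93. The test of the difference between the sexes called 25 with 1 RPM added.

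On the deposited scale 36 named microRNAs that were positive at equal totals were negative. Of these, 20 were past the threshold on neither scale, among them miR-10a-5p, miR-10b-5p, miR-293-3p, miR-200c-3p and miR-202-5p, and 16 were past it on at least 1 of the scales: miR-92a-3p (-1.14), miR-23b-3p (-0.87), miR-9-5p (-1.72), miR-30c-5p (-1.28), miR-125a-5p (-1.03), miR-183-5p (-0.53), miR-182-5p (-0.66), miR-669c-5p (-0.39), miR-200b-3p (-0.55), miR-30d-5p (-2.06), miR-130b-5p (-1.85), let-7f-5p (-2.05), miR-10a-3p (-1.72), miR-155-5p (-0.11), miR-93-5p (-2.11) and let-7c-5p (-1.30). The male log2 ratios of summed groups that were positive at equal totals and negative there were those of the miR-290 cluster (-0.32), miR-182 cluster (-0.45), miR-200 family (-0.46), let-7 family (-0.93), miR-125, miR-99 and miR-100 (-0.95), Hox-cluster (-0.79), miR-23, miR-27 and miR-24 (-1.25), miR-221 and miR-222 (-0.89), Sfmbt2-type (-1.05), neural (-0.80) and kidney (-0.75) groups.

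The edgeR and DESeq2 alternatives were not run, since the deposited values are normalized; voom on the whole reads and the omission of a library on the deposited scale were chosen after seeing the data. No paired analysis was possible because each group has 1 library. At E12.5 a microRNA under about 30 RPM could not be detected, and at E11.5 one under 4.09 RPM (female) or 11.6 RPM (male), so absence at E12.5 is set by depth.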
